A study of Mus musculus with 6 samples.

Results

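The splicing regulators of adipose tissue were examined by RNA-seq of epididymal fat from 3 control and 3 HuRAKO mice. They were the genes of 7 families of RNA-binding proteins whose symbols begin with Hnrnp, Srsf, Rbm, Celf, Mbnl, Ptbp or Tra2 (with a number after all but Hnrnp and Tra2). Of 73 matching names Hnrnpd was left out, and the other 72 made up the set, of 13116 genes listed. They were 19 hnRNP, 10 SR, 33 RBM, 3 CELF, 2 MBNL, 3 PTB and 2 Tra2 genes, with 219 of the 24946 listed transcripts. All mice were C57BL/6 mice with HuRflox/flox alleles and were fed an HFD for 16 weeks from the age of 8 weeks. Controls were AdipoQ-Cre- and HuRAKO mice AdipoQ-Cre+, so that both groups carried the floxed alleles and only the second carried the Cre. This Cre is driven by the adiponectin promoter, which is active in adipocytes, whereas vessels, macrophages and other cells of the tissue keep HuR. HuR, encoded by Elavl1, binds AU-rich RNA. The Elavl1 mRNA had 3.93, 4.85 and 4.98 FPKM in controls (fragments per kilobase of transcript and per mapped depth; mean 4.59 ± 0.576 SD) against 4.66, 5.24 and 5.63 FPKM in HuRAKO mice (5.18 ± 0.489), with overlap. It was thus not lower in the HuRAKO libraries and does not check the labels. By qPCR and western blot, the paper reported less HuR mRNA and protein in adipose tissue of HuRAKO mice. The groups and every direction given here rest on the labels alone.

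Pre-mRNA splicing is steered by proteins that bind short sequences in exons and introns. SR proteins and the Tra2 proteins mostly promote the use of an exon, whereas many hnRNP and PTB proteins repress it. The CELF and MBNL proteins and some RBM proteins can do either, depending on where they bind. Many of these proteins also limit their own amounts: they splice a so-called poison exon with an in-frame stop codon, or a retained intron, into their own mRNA, which is then destroyed by nonsense-mediated decay.

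Members were abundant and varied less between mice than all genes tested. Their median level was 11.6 FPKM, against 6.07 FPKM over the 12847 genes tested, and 41 of 72 had a mean of at least 10 FPKM. FPKM is scaled by length, which for gene values was that of the union of a gene's annotated exons, as given below. Levels compared between genes therefore depend on the annotation as well. The SD of log2(FPKM + 1) over the 6 mice had a median of 0.137 among members and 0.197 among all genes tested. This comparison was not matched for level, which was higher in members. Together the 72 genes made up 0.474 to 0.550% of the summed FPKM of a mouse, and both ends of this range were control mice.

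Among hnRNP proteins, the highest was Hnrnpa1, which binds splicing silencers and opposes SR proteins, with a mean of 97.8 FPKM over the 6 mice. It was followed by Hnrnpab at 67.3 FPKM and Hnrnpf, which binds G-rich RNA, at 58.8 FPKM. Among SR proteins the order was Srsf5 (72.4 FPKM), Srsf2 (47.9 FPKM) and Srsf6 (29.1 FPKM), and the lowest was Srsf10 (6.68 FPKM). The RBM family reached lower levels, with a median of 5.71 FPKM against 27.97 FPKM for hnRNP and 18.2 FPKM for SR genes. Its highest members were the cold-inducible protein Rbm3 (33.3 FPKM), Rbm39 (27.9 FPKM) and Rbm17 (23.5 FPKM). In the order of means, Hnrnpab and Srsf5 overlapped between mice, as did Hnrnpf and Srsf5.

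The question of the comparison was whether deletion of HuR in adipocytes went with another level of these regulators. In the fit over all genes, 0 of 72 members had an adjusted p under 0.05 (limma; 1 of 12847 genes did, 0.00778%). At an unadjusted p under 0.05 there were 5 members (6.94%), against 8.03% of all genes tested: 1 was higher and 4 were lower in HuRAKO mice, where the shares of all genes were 3.86% and 4.16%. The study's thresholds add a fold over 1.5, which on the scale of log2(FPKM + 1) left 1 member, Rbm28 (1.39%, against 2.62% of all genes). In plain FPKM the means of Rbm43 (7.66 in control, 4.69 in HuRAKO mice) and Celf4 (0.727 and 0.405) also lay over 1.5-fold apart. The share of all genes by that plain fold was not computed. The members' counts given beside a share of all genes lay near the background. A limma p measures only the spread between these mice, and an exact permutation test of 3 against 3 mice cannot go below 0.1, its value for every gene whose groups do not overlap. The median log2 fold change of the 72 was -0.03, against -0.01 over all genes, and 45 members were below 0 and 27 above. Differences were small: 60 of 72 (83.3%) had a log2 fold change within 0.2 of 0, against 66.7% of all genes, again without matching for level. When FPKM were rescaled to a common sum in each mouse, the 496 higher and 535 lower genes of the whole table at p under 0.05 became 600 and 421, and the members' median was -0.00019.

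**Figure D1:**
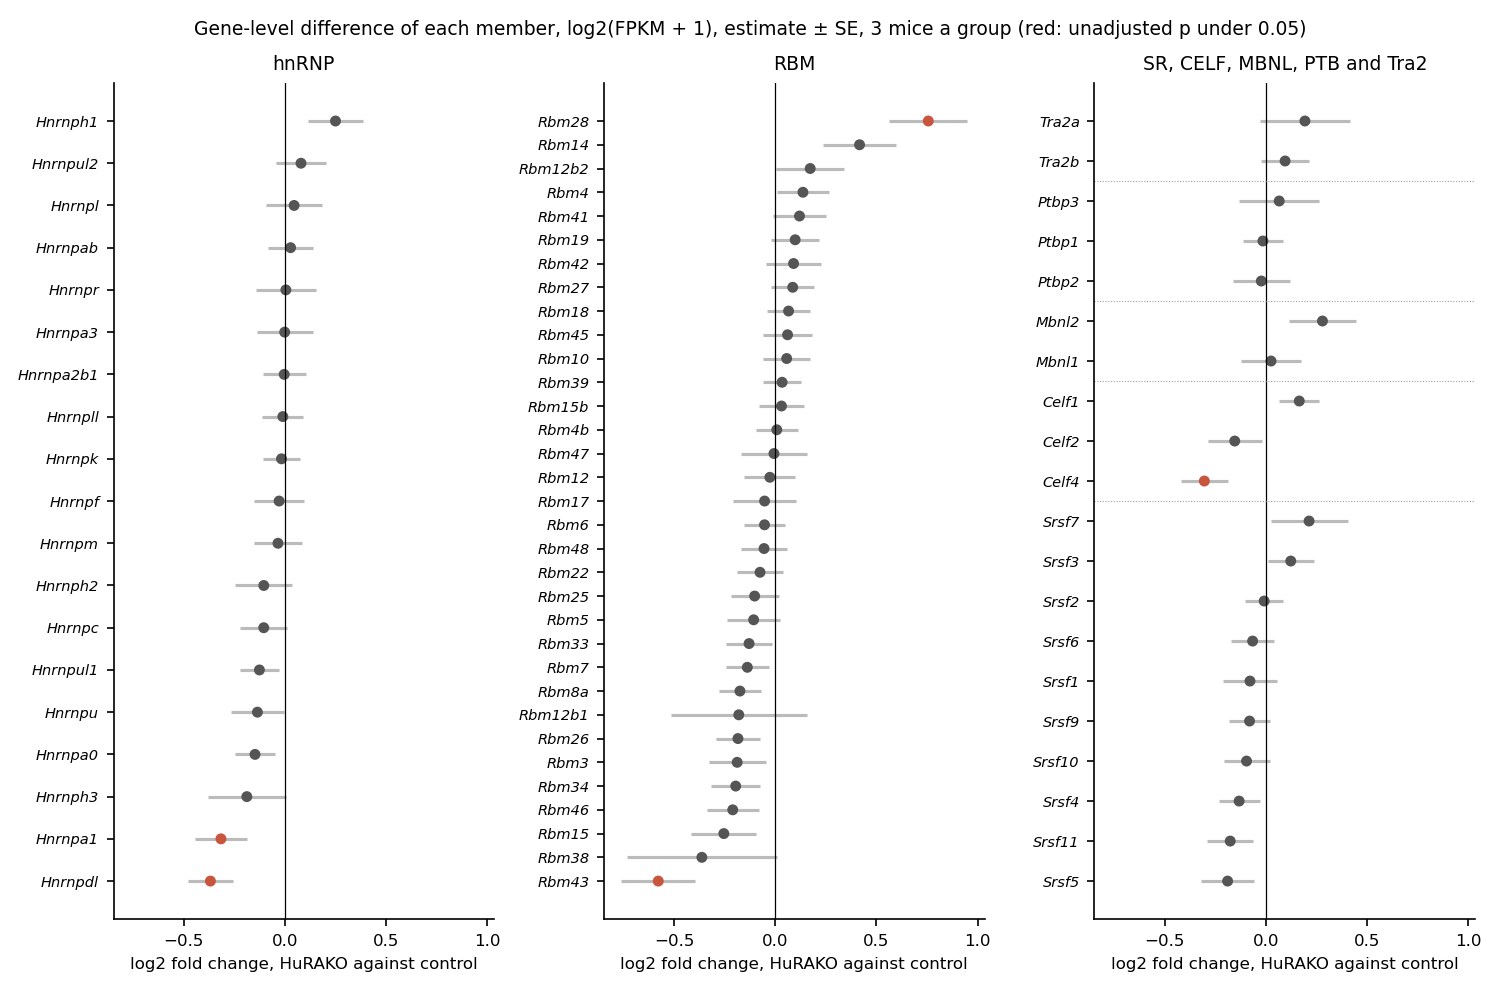
Log2 fold change of each of the 72 members (x axis, HuRAKO against control on log2(FPKM + 1); points are limma estimates and bars 1 SE; 3 mice a group), by family. Red points are the 5 members with an unadjusted p under 0.05; Rbm28 lies farthest to the right (0.76) and Rbm43 farthest to the left (-0.58).

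Rbm28 (chr6:29123576-29165006, GRCm38, minus strand) encodes a nucleolar RNA-binding protein that associates with spliceosomal snRNPs. Control mice 1, 2 and 3 had 8.11, 8.53 and 8.20 FPKM, and HuRAKO mice 1, 2 and 3 had 20.1, 11.98 and 13.04 FPKM. The groups did not overlap, controls lay close to each other, and HuRAKO mouse 1 stood above all others. The log2 fold change was 0.76 ± 0.19 (SE; unadjusted p = 0.00692, adjusted p = 0.442), and p stayed between 0.00398 and 0.0226 in all 14 alternatives. Its full-length transcript Rbm28-201, with 19 exons and a coding sequence of 2250 bases, had 9.81, 10.2 and 9.65 FPKM in controls and 24.8, 14.3 and 15.3 FPKM in HuRAKO mice (log2 fold change 0.77 ± 0.23, unadjusted p = 0.0158, adjusted p = 0.661).

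Hnrnpdl (chr5:100033577-100039664, minus strand) encodes a hnRNP D-like protein that binds AU-rich RNA. It was measured at 26.9, 25.6 and 29.7 FPKM in controls and at 19.5, 22.9 and 20.7 FPKM in HuRAKO mice. Every HuRAKO mouse was below every control (log2 fold change -0.37 ± 0.11, unadjusted p = 0.0152, adjusted p = 0.4997), and without HuRAKO replicate 1 the p was 0.0512. Its transcript Hnrnpdl-207 had 27.1, 25.8 and 27.8 against 17.2, 21.6 and 19.1 FPKM (unadjusted p = 0.0209, adjusted p = 0.699, and 0.0623 and 0.0522 unadjusted without HuRAKO replicates 1 and 3). Hnrnpdl-202, which has the longer annotated coding sequence (1260 against 967 bases), had 9.81, 7.75 and 17.1 against 10.9, 11.1 and 11.2 FPKM (log2 fold change 0.01 ± 0.29). In the test of shares given below, both transcripts had an unadjusted p of 0.214.

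Rbm43 (chr2:51924448-51935163, minus strand) had 6.01, 6.84 and 10.1 FPKM in controls and 4.49, 4.69 and 4.88 FPKM in HuRAKO mice. The groups did not overlap, and control mouse 3 was the highest (log2 fold change -0.58 ± 0.18, unadjusted p = 0.0176, adjusted p = 0.506). The p was 0.0148 without control replicate 3 and 0.0524 without HuRAKO replicate 1.

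Hnrnpa1 (chr15:103240432-103244955, plus strand) had 96.2, 105 and 125 FPKM in controls and 83.9, 83.3 and 93.0 FPKM in HuRAKO mice. The groups did not overlap, although HuRAKO mouse 3 came close to control mouse 1 (log2 fold change -0.32 ± 0.13, unadjusted p = 0.0470, adjusted p = 0.619). This p was at the threshold: leaving out control replicates 2 or 3 or any of the 3 HuRAKO mice gave 0.0557 to 0.119. Hnrnpa1 has processed pseudogenes of nearly the same sequence, so its level depends on how the authors assigned shared reads.

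Celf4, a CELF protein mainly of neurons, was the lowest member at 0.566 FPKM. It had 0.736, 0.668 and 0.778 FPKM in controls and 0.282, 0.339 and 0.593 FPKM in HuRAKO mice, without overlap (log2 fold change -0.30 ± 0.12, unadjusted p = 0.0392, adjusted p = 0.601). Its mean was 0.727 FPKM in control and 0.405 FPKM in HuRAKO mice, so that it passed the filter of 0.5 FPKM only through the controls. The counts of lower members include it all the same. Leaving out any mouse except HuRAKO replicate 3 gave a p of 0.0665 to 0.117.

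**Figure D2:**
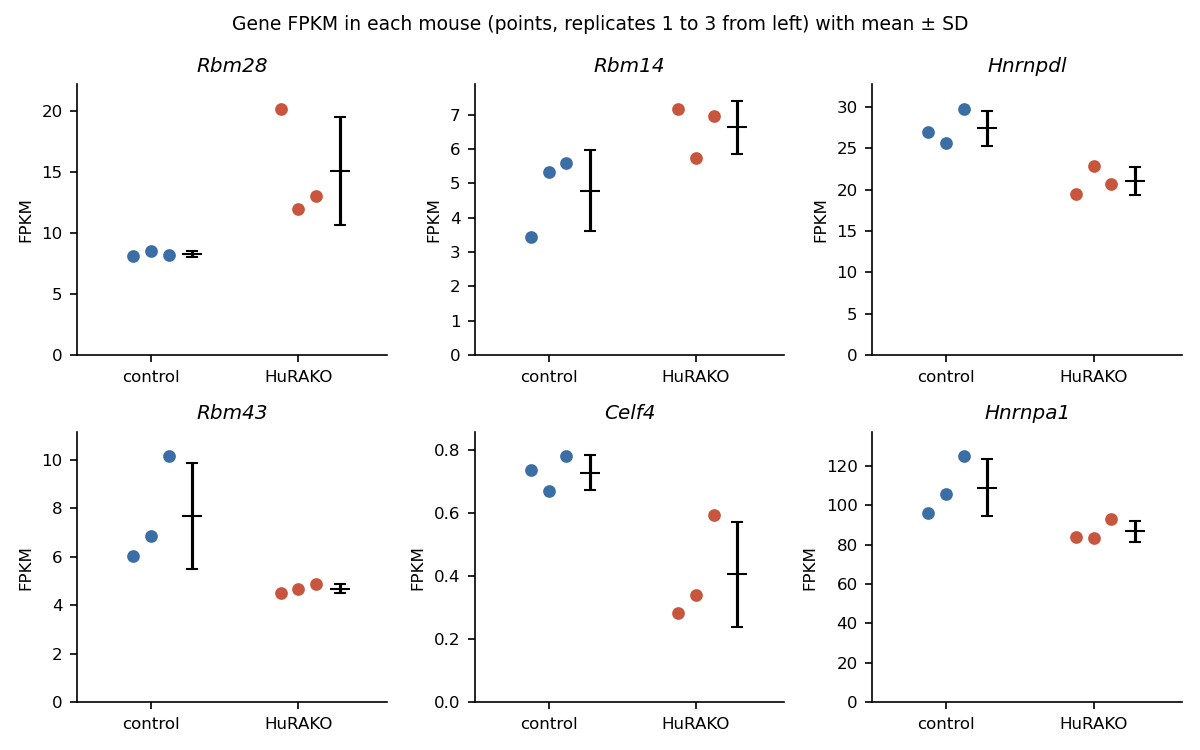
Gene FPKM (y axis, from 0) of 6 members in each of the 3 control (blue) and 3 HuRAKO mice (red), with the mean ± SD of the group in black. Rbm28 and Rbm14 were higher and Hnrnpdl, Rbm43, Celf4 and Hnrnpa1 lower in all HuRAKO mice; the lowest HuRAKO mouse for Rbm28 (11.98 FPKM) was above the highest control (8.53 FPKM).

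Groups did not overlap for 11 members (15.3%, against 14.7% of all genes tested): 3 higher members (4.17%, against 7.04% of all genes) and 8 lower (11.1%, against 7.68%). Beside the 5 above these were 6. Rbm14, a coactivator and component of paraspeckles, had 3.43, 5.33 and 5.58 FPKM in controls and 7.16, 5.75 and 6.97 FPKM in HuRAKO mice (log2 fold change 0.42 ± 0.18, unadjusted p = 0.0585, and 0.0343 without control replicate 3). Rbm14 shares exons with a readthrough transcript that also covers Rbm4. Celf1, which binds GU-rich RNA, had 10.8, 12.1 and 11.6 FPKM in controls and 13.1, 13.6 and 12.4 FPKM in HuRAKO mice (unadjusted p = 0.140). The others were Srsf11, Hnrnpa0, Hnrnpul1 and Rbm8a, which is a core protein of the exon junction complex. Their log2 fold changes were -0.18 to -0.13, and p was 0.145 to 0.234. For Rbm8a the HuRAKO mice were alike (11.5, 11.6 and 11.5 FPKM) and controls were at 12.1, 12.9 and 14.6 FPKM.

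Of the 4 small families PTB differed least. The median size of the log2 fold change was 0.022 in PTB, 0.166 in CELF, 0.153 in MBNL and 0.145 in Tra2 genes, against 0.132 over all genes tested. PTB proteins, which repress exons at pyrimidine tracts, had log2 fold changes of -0.02 to 0.07, with Ptbp1 at 12.8 ± 0.377 and 12.6 ± 0.855 FPKM in control and HuRAKO mice, Ptbp3 at 25.3 ± 6.78 and 26.1 ± 3.02 FPKM, and Ptbp2 at 3.28 ± 0.499 and 3.22 ± 0.503 FPKM. The muscleblind gene Mbnl2 had 11.7, 8.31 and 11.3 FPKM in controls and 14.9, 11.5 and 12.1 FPKM in HuRAKO mice (unadjusted p = 0.137), and Mbnl1 was at 10.7 ± 0.461 and 10.99 ± 2.01 FPKM. The exon activators Tra2a and Tra2b were at 10.1 ± 2.71 and 13.8 ± 1.69 FPKM in controls and at 11.5 ± 2.16 and 14.7 ± 0.517 FPKM in HuRAKO mice. Celf2 was at 11.8 ± 1.98 and 10.4 ± 0.378 FPKM. In these 4 families, Celf4 alone had a p under 0.05.

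In the SR family, 0 of 10 passed an unadjusted p of 0.05, the log2 fold changes ran from -0.19 (Srsf5) to 0.21 (Srsf7), and 8 of 10 were below 0. Srsf2 varied least among its 3 most abundant members, with 48.0 ± 1.31 FPKM in control and 47.7 ± 2.42 FPKM in HuRAKO mice. Srsf5 had 80.1, 78.9 and 72.0 FPKM in controls and 60.7, 78.9 and 63.7 FPKM in HuRAKO mice, where HuRAKO mouse 2 was level with controls (unadjusted p = 0.199).

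The members that varied most between mice were Rbm38, Rbm28, Rbm12b1, Rbm43 and Rbm14 (SD of log2 values 0.536 to 0.317). Rbm38, a target of p53 that stabilises RNA, had 2.26, 4.26 and 1.13 FPKM in controls and 1.74, 2.38 and 0.848 FPKM in HuRAKO mice. In both groups mouse 2 was highest and mouse 3 lowest, and with the replicate number as a block the count of members at p under 0.05 was 6, Rbm38 being added. Rbm12b1 stood out in control mouse 3, with 4.13 FPKM against 1.06 to 1.97 FPKM in the other mice. Rbm12b1 and Rbm12b2 are near-identical neighbours, so that reads may be split between them.

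Among libraries, control mouse 3 stood apart on the first principal component of all genes (48.3, against -14.5 to -3.09 in the other mice; 41.1% of variance). Without it 4 members had a p under 0.05: Rbm28, Hnrnpdl, Rbm43 and Rbm14. Marker sums of several cell types did not overlap between the genotypes. The summed FPKM of 7 smooth muscle and pericyte markers was 179 to 240 in control and 318 to 472 in HuRAKO mice, that of 7 endothelial markers 134 to 171 and 212 to 294, that of 7 mesothelial markers 182 to 290 and 99.2 to 142, that of 7 markers of lipid-associated macrophages 47.7 to 64.4 and 65.8 to 225, and that of 6 progenitor markers 456 to 739 and 387 to 445. In HuRAKO mouse 3 the smooth muscle and pericyte markers Cnn1, Myh11, Rgs5 and Pdgfrb were below all controls, although the sum of the 7 was above. Of the markers of lipid-associated macrophages Trem2, Cd9 and Spp1 overlapped, and Spp1 in HuRAKO mouse 2 (0.578 FPKM) was below all controls. Of the mesothelial markers Msln and Krt18 overlapped. Of the progenitor markers Dcn alone did not overlap, with 309 to 373 FPKM in control and 222 to 284 FPKM in HuRAKO mice. Pdgfra, Dpp4, Pi16, Cd34 and Ly6a overlapped, and Pi16 was highest in HuRAKO mouse 1 (25.8 FPKM). General macrophage markers were highest in control mouse 3 (1506, against 556 to 1023), and adipocyte markers lowest there (3741, against 4754 to 5400). Their part in the members' values was not tested. In whole tissue, fewer cells of a type and less RNA per cell cannot be told apart.

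Transcripts were then compared, since many of these proteins act on splice sites, including their own. Of the 219 listed transcripts 213 were tested, and 11 (5.16%) had an unadjusted p under 0.05, against 6.52% of the 23233 transcripts tested. They were 4 higher (1.88%, against 3.32%) and 7 lower (3.29%, against 3.20%), and 0 had an adjusted p under 0.05 (limma, smallest 0.551; 0.0603% of all transcripts did). Groups did not overlap for 33 transcripts (15.5%, against 13.1%). The share of each transcript in the summed FPKM of the listed transcripts of its gene was tested for 148 transcripts of 52 members. Here 2 (1.35%) had a p under 0.05, against 5.71% of 15063, Srsf10-202 and Hnrnpm-205, both lower in HuRAKO mice (2.94% of all shares), and 0 had an adjusted p under 0.05 (0.139% of all). Both passed the filter, a mean share of at least 5% over the 6 mice, only through the controls. Their mean shares were 10.3 and 10.6% in control mice and 3.07 and 2.66% in HuRAKO mice. With the replicate number as a block there were 5, Rbm12b2-201, Rbm12b2-202 and Hnrnph1-203 being added, and without control replicates 2 or 3 there were 6 and 5. For genes with 2 listed transcripts, such as Rbm12b2 and Hnrnpa1, the 2 share tests are mirror images. Counts of shares, here and below, are therefore not counts of genes.

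Srsf10 encodes an SR protein that turns into a general splicing repressor when dephosphorylated. Its transcripts Srsf10-202 and Srsf10-204 differ by 3 bases alone, at the start of an exon where an acceptor site is used at either of 2 neighbouring places. The junction is shown because these bases set apart Srsf10-202, whose share had an unadjusted p under 0.05 (limma). The sequences are from GENCODE M21 transcripts on GRCm38 (chr4:135863183-135863545, plus strand, introns spliced out), with the 3 bases at chr4:135863523-135863525 in capitals.
Srsf10-204: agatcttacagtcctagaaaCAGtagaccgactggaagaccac
Srsf10-202: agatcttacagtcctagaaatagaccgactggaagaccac

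Srsf10-202 held 7.19, 11.6 and 12.1% of the listed FPKM of Srsf10 in controls and 3.15, 3.41 and 2.65% in HuRAKO mice. The groups did not overlap (log2 ratio to the other transcripts lower by 1.06 ± 0.28 SE, unadjusted p = 0.00959, adjusted p = 0.690), and p stayed between 0.00472 and 0.0318 in all 11 alternatives. Its level was 0.827, 1.71 and 1.48 against 0.370, 0.411 and 0.308 FPKM (unadjusted p = 0.00743, adjusted p = 0.557), which is low. All HuRAKO values were under 0.5 FPKM, so that here, too, it passed the filter on the mean through the controls. Srsf10-205 also holds these bases and Srsf10-203 lacks them. Taken over all 4 transcripts, those with the bases (Srsf10-204 and Srsf10-205) held 81.0, 73.8 and 74.5% in controls and 87.2, 87.6 and 85.4% in HuRAKO mice. This sum was chosen after the values of Srsf10-202 were seen and includes them, so it is a description; its exact permutation p was 0.1, the smallest that 3 against 3 mice allow. The gene as a whole was at 6.95 ± 0.806 and 6.42 ± 0.354 FPKM.

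Hnrnpm encodes a hnRNP that acts on the splicing of exons next to GU-rich RNA. In GENCODE M21, Hnrnpm-205 and Hnrnpm-201 lack a stretch of 117 bases (chr17:33666530-33666646, minus strand) that lies within the coding sequence of Hnrnpm-206 and is also in Hnrnpm-202. Its flanks adjoin it in the genome, so that it is a part of an exon, spliced out as an intron in Hnrnpm-205 and Hnrnpm-201 (17 exons against 16). It is shown in capitals with 15 bases of this exon on each side, since the share of Hnrnpm-205 was the other with an unadjusted p under 0.05 (limma).
Hnrnpm-206: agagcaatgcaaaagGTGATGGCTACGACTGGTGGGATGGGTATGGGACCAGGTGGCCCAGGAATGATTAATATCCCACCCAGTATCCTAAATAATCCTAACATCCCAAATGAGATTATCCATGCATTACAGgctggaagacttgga
Hnrnpm-205: agagcaatgcaaaaggctggaagacttgga

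Hnrnpm-205 held 9.84, 12.5 and 9.49% of the listed FPKM in controls and 6.23, 0.582 and 1.18% in HuRAKO mice. HuRAKO mouse 1 lay between the other HuRAKO mice and the controls, and the groups did not overlap (log2 ratio lower by 1.88 ± 0.57 SE, unadjusted p = 0.0168, adjusted p = 0.808). Leaving out control replicate 2, HuRAKO replicate 2 or HuRAKO replicate 3 gave 0.0521, 0.0503 and 0.0555. Transcripts with the 117 bases together held 34.3, 54.2 and 56.5% in controls and 61.5, 63.4 and 61.2% in HuRAKO mice, with control mouse 1 apart from all others. This sum, too, was chosen after the values were seen and is a description, with the same smallest exact permutation p of 0.1. It rests on the M21 structure of Hnrnpm-201, whose version is another than the deposited one. The gene overlaps March2 on the same strand, and its own level was 23.0 ± 2.61 and 22.3 ± 1.27 FPKM.

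**Figure D3:**
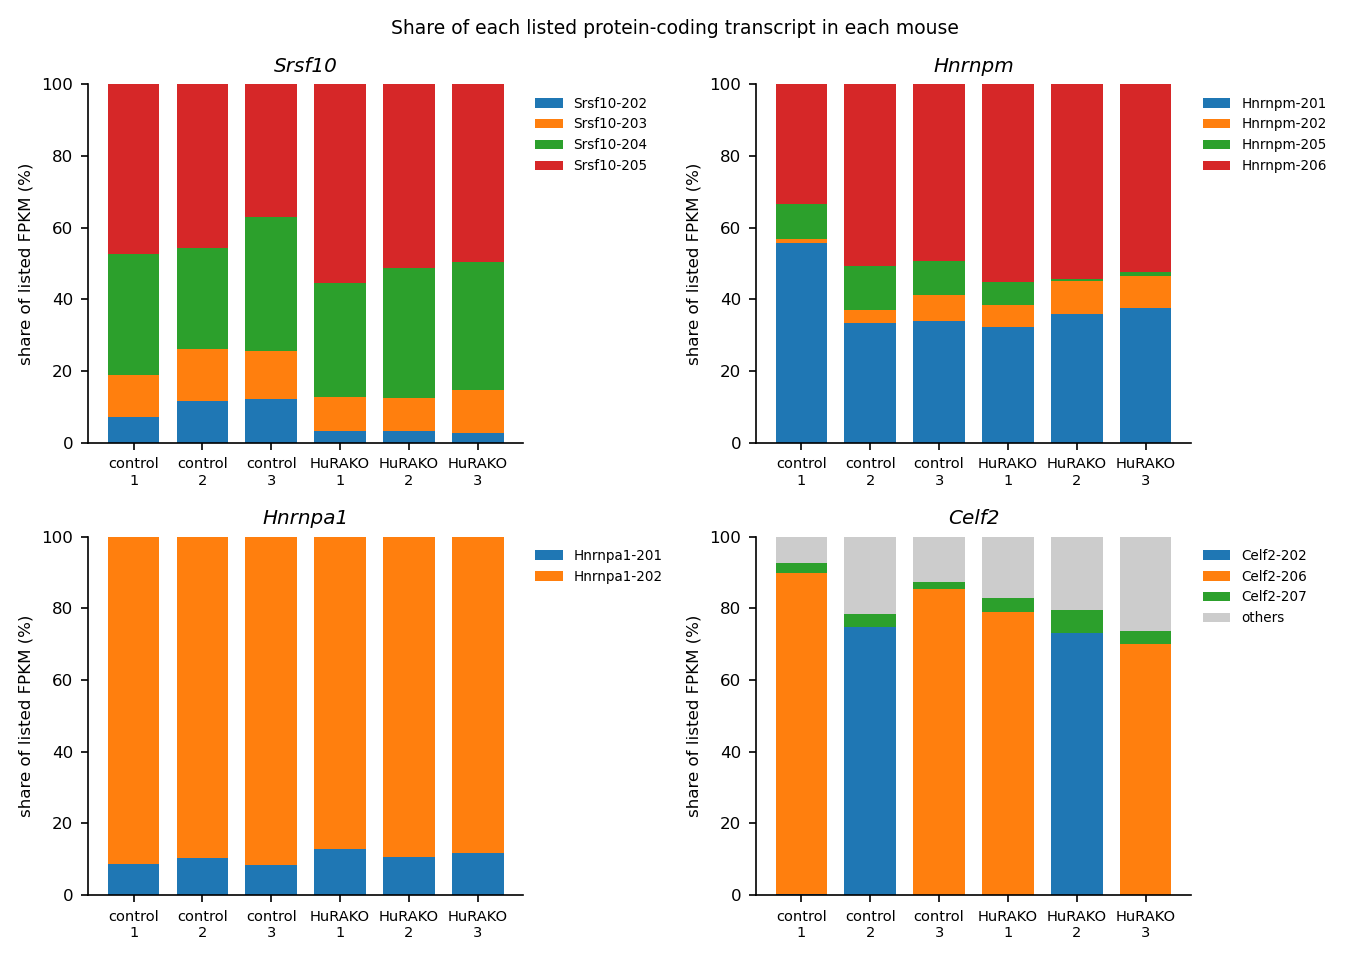
Share (%) of each listed protein-coding transcript in the summed listed FPKM of Srsf10, Hnrnpm, Hnrnpa1 and Celf2, one bar for each mouse. Srsf10-202 took 7.19 to 12.1% in controls and 2.65 to 3.41% in HuRAKO mice, and the leading Celf2 transcript in control mouse 2 and HuRAKO mouse 2 was another than in the other 4 mice.

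For Hnrnpa1, the long form Hnrnpa1-201 includes an exon of 159 bases in the glycine-rich part of the protein, and the version of the short form in M21 is another than in the deposited table. Hnrnpa1-202, without this exon, had 95.0, 102 and 123 FPKM in controls and 79.0, 80.5 and 88.7 FPKM in HuRAKO mice (log2 fold change -0.36 ± 0.16, unadjusted p = 0.0684). Hnrnpa1-201 had 9.07, 11.6 and 11.4 against 11.5, 9.50 and 11.7 FPKM (log2 fold change 0.02 ± 0.17, unadjusted p = 0.891). The long form thus held 8.71, 10.2 and 8.47% in controls and 12.7, 10.6 and 11.6% in HuRAKO mice, without overlap (test of the share: unadjusted p = 0.188, adjusted p = 0.885), as for 24 of 148 member shares (16.2%, against 12.3% of all).

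The other transcripts with p under 0.05 came from Celf1, Srsf5, Hnrnpc, Rbm15, Celf2 and Celf4. Celf1-201 had 1.64, 1.37 and 1.40 FPKM in controls and 2.26, 2.53 and 3.53 FPKM in HuRAKO mice (log2 fold change 0.60 ± 0.18, unadjusted p = 0.0148, adjusted p = 0.659). Celf1-206, which starts at the same base, had 1.63, 1.36 and 2.02 against 2.45, 3.14 and 3.05 FPKM (unadjusted p = 0.0174, adjusted p = 0.668, and 0.0517 to 0.056 unadjusted without control replicate 2, HuRAKO replicate 2 or HuRAKO replicate 3). Both begin at chr2:90940397, upstream of Celf1-208, the most abundant form on average, which begins at 90987746 and had 4.95 to 6.71 FPKM in controls and 5.03 to 10.4 FPKM in HuRAKO mice. Celf1-214 begins at the same base as Celf1-201 and was not higher, with 3.67, 3.64 and 2.95 against 0, 3.57 and 3.24 FPKM (unadjusted p = 0.281). Srsf5-203 had 4.19, 2.95 and 3.77 against 0.880, 2.08 and 1.68 FPKM without overlap (log2 fold change -0.88 ± 0.24, unadjusted p = 0.00950, adjusted p = 0.588). Its coding sequence is as long as that of Srsf5-201 (807 bases), which had 35.6, 31.6 and 56.3 against 36.8, 28.1 and 21.8 FPKM. Hnrnpc-207, of the hnRNP C protein that binds uridine tracts, had 7.63, 9.03 and 7.70 against 5.69, 6.63 and 5.25 FPKM (unadjusted p = 0.0380, adjusted p = 0.757). Rbm15-201, of a protein that recruits the m6A writer complex, was at 2.04, 2.49 and 2.24 against 1.48, 1.48 and 1.66 FPKM (unadjusted p = 0.0414, adjusted p = 0.757). The remaining ones were Celf2-224 (higher, unadjusted p = 0.0386, while the gene Celf2 had a log2 fold change of -0.15) and Celf4-202 (lower, unadjusted p = 0.0396). Leaving out 1 mouse took the p of Hnrnpc-207, Rbm15-201, Celf2-224 and Celf4-202 over 0.05, up to 0.117.

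Transcript values of some members varied between mice of 1 group far more than their gene values, although this spread was not compared over all members. In 25 of the 52 members with 2 or more listed transcripts (48.1%), the transcript with the highest FPKM was not the same in all 6 mice, as in 41.4% of 6162 such genes in all. The clearest was Celf2: Celf2-206 had 59.0 and 43.1 FPKM in control mice 1 and 3, 41.2 and 38.4 FPKM in HuRAKO mice 1 and 3, and was listed at 0 in mouse 2 of both groups. In these 2 mice Celf2-202 had 30.6 and 29.1 FPKM, and at most 0.106 FPKM in the others. The gene was at 10.04 to 14.1 FPKM in all 6 mice. Srsf4-202, the 1 listed transcript of Srsf4, had 3.58, 20.1 and 16.9 FPKM in controls and 3.56, 19.1 and 3.23 FPKM in HuRAKO mice, while the gene stayed at 12.997 to 15.9 FPKM. Rbm39-203 had 27.3 FPKM in control mouse 2 and 0.240 to 7.21 FPKM elsewhere. Such jumps did not follow the genotype. The 25 members also include near-ties such as Rbm12, whose 2 listed transcripts each held 47.2 to 52.8% of the listed FPKM in every mouse.

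The transcript table listed protein-coding transcripts alone, while the gene values included others. In 1673 of 1674 genes whose every GENCODE M21 transcript was listed, the gene FPKM equalled the sum of FPKM times length over transcripts, divided by the length of the union of exons, within 0.1%. Of these, 472 had 2 or more transcripts, and in 471 of them the relation held. The part of a gene's value that its listed transcripts leave over therefore belongs to transcripts that were not listed, among them those annotated as retained introns or as targets of nonsense-mediated decay. This part was computed for the 61 members with a mean of at least 1 FPKM whose annotation matched. It was a measure chosen after the tables were seen.

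The unlisted part was large in many members. Its median was 11.1%, against 3.32% over 10213 genes, and it reached 25% in 21 of 61 members (34.4%), against 15.1% of all genes. Members also had more annotated transcripts, with a median of 7 against 5. Where no unlisted transcript was protein-coding and at least 1 was a retained intron or decay target, 9 of 20 members (45.0%) and 552 of 2863 genes (19.3%) reached 25%. By family the median was 42.5% for 8 SR genes, 8.40% for 16 hnRNP genes and 7.62% for 29 RBM genes. Tra2a was at 81.8, 85.5 and 86.3% in controls and 81.5, 79.5 and 85.9% in HuRAKO mice. Srsf11 was between 53.0 and 54.8% in all 6 mice, Hnrnpl between 49.8 and 54.1%, and Hnrnph1 between 90.6 and 95.3%. The 15 unlisted transcripts of Hnrnph1 are annotated as processed transcripts, with 0 decay targets and 0 retained introns among them. At the other end Hnrnpa0 and Hnrnpab, whose every transcript was listed, were at 0.

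**Figure D4:**
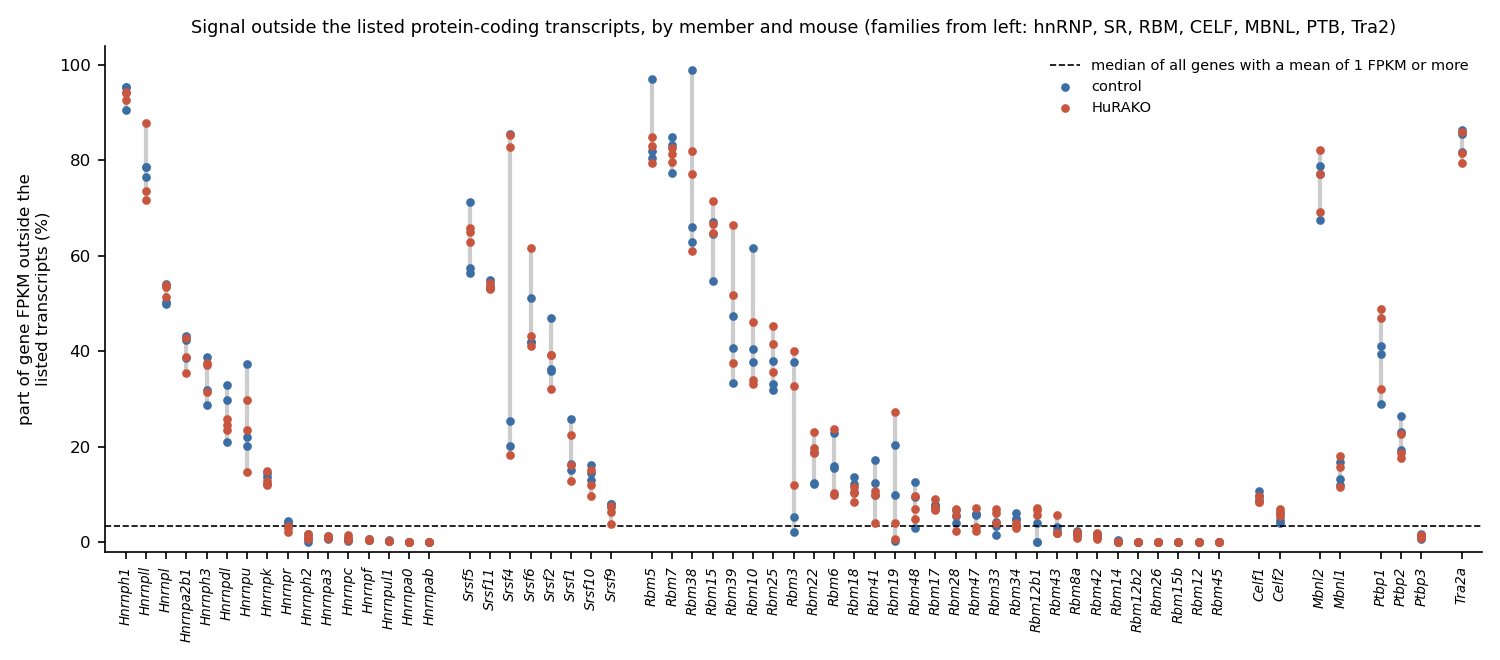
Part of the gene FPKM (%) outside the listed protein-coding transcripts, for 61 members with a mean of at least 1 FPKM, 3 control (blue) and 3 HuRAKO mice (red) each; grey lines span the 6 mice and the dashed line is the median of 10213 genes (3.32%). Blue and red points overlap in every member with a part of at least 5%, and Srsf4 spans 18.2 to 85.5%.

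Several of the unlisted transcripts hold exons of the poison type, which occur in no protein-coding transcript of the gene, contain the stop codon and belong to transcripts annotated as targets of nonsense-mediated decay. They are printed from the first base of the exon to the stop codon, in capitals, for members with a large unlisted part, since their inclusion would count in that part. Positions are on GRCm38: Srsf4-203 chr4:131884276-131884390 (plus strand), Srsf11-206 chr3:158024209-158024231 (minus), Tra2a-202 chr6:49252965-49253108 (minus), Hnrnpl-213 chr7:28817335-28817393 (plus) and Hnrnpll-203 chr17:80044976-80045022 (minus). The whole exons have 207, 109, 306, 70 and 83 bases.
Srsf4-203: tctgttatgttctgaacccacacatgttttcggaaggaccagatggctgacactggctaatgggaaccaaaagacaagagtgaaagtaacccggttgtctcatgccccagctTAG
Srsf11-206: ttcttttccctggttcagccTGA
Tra2a-202: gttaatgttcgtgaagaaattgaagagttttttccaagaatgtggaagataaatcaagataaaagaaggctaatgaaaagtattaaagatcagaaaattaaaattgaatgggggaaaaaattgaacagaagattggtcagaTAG
Hnrnpl-213: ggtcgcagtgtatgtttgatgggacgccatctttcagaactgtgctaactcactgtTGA
Hnrnpll-203: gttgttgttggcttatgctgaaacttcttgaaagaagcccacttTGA

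How much of the unlisted part came from these exons, and how much from retained introns, unlisted protein-coding transcripts or fragments, was not measured. Unlisted protein-coding transcripts number 3 for Srsf11, 1 for Hnrnpl, 1 for Hnrnpll and 0 for Srsf4 and Tra2a. The part did not differ between genotypes at p under 0.05 in any of the 40 members tested (0%, against 5.76% of 4378 genes, limma; 0 by adjusted p, against 0.137%), and the groups overlapped in all 40 (against 11.4% without overlap among all). The smallest p was 0.0789, for Rbm22, a protein of the activated spliceosome. Without control replicate 2 there were 2 members at p under 0.05, and without HuRAKO replicate 2 there was 1. Srsf4 had an unlisted part of 85.5, 20.1 and 25.4% in controls and 82.6, 18.2 and 85.3% in HuRAKO mice, which mirrors the jumps of its listed transcript.

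The rest of the splicing machinery was given by 6 lists of 123 genes, of which 117 were tested. At an unadjusted p under 0.05 were 3 higher and 4 lower (5.98%, against 8.03% of all genes), and 0 had an adjusted p under 0.05 (smallest 0.464). The median log2 fold change was -0.0011. There were 0 such genes among 17 of U1, U2 and branch point recognition, 23 of the tri-snRNP and spliceosome activation, 14 Sm and LSm proteins and 16 SR protein kinases and related genes. Of 17 genes of the exon junction complex and nonsense-mediated decay there was 1, the core protein gene Magohb, at 2.63, 2.90 and 3.86 FPKM in controls and 2.02, 2.31 and 1.79 FPKM in HuRAKO mice (unadjusted p = 0.0221, adjusted p = 0.536). The other 6 were among 30 other splicing regulators, and 4 of them are described.

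Pcbp2, which binds C-rich RNA, had 97.8, 109.8 and 106 FPKM in controls and 79.7, 87.8 and 86.1 FPKM in HuRAKO mice (unadjusted p = 0.0228, adjusted p = 0.540). All HuRAKO mice were below all controls. Khdrbs3, of the same STAR family as Sam68, was lower as well, at 4.26, 3.93 and 5.85 against 2.95, 3.59 and 3.19 FPKM (unadjusted p = 0.0339, adjusted p = 0.585). Qk, the quaking gene of a STAR-domain splicing regulator, had 29.5, 27.0 and 25.5 against 32.6, 34.1 and 32.9 FPKM (unadjusted p = 0.0311, adjusted p = 0.576, and 0.0518 unadjusted with the replicate number as a block). Nova2, a regulator known from neurons and endothelium, was higher, with 2.07, 1.97 and 1.58 against 2.74, 3.65 and 2.71 FPKM (log2 fold change 0.49 ± 0.14, unadjusted p = 0.0104, adjusted p = 0.464), beside the higher endothelial markers given above. Leaving out 1 mouse took the unadjusted p of Pcbp2 to at most 0.076 (without control replicate 2), of Khdrbs3 to 0.0985 (HuRAKO replicate 1), of Qk to 0.0833 (HuRAKO replicate 2) and of Magohb to 0.0725 (HuRAKO replicate 3), while Nova2 stayed at 0.0311 or less. Without HuRAKO replicate 1 there were 2 genes of the 117 at p under 0.05, and without HuRAKO replicate 3 there were 3.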

How the data were processed

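Epididymal adipose tissue RNA of 6 mice (3 control, 3 HuRAKO, grouped by their labels) was sequenced. For each mouse the authors deposited 2 tables of FPKM, of genes and of transcripts. The submitters' processing notes name Bowtie 0.12.2 and GRCm38, and the program that computed FPKM is not given in the sources used here. The methods name a stranded kit and the labels another, and whether counting used strand is not given. Depth is unknown, so precision comes from the spread between mice, and the study calls the controls littermates without saying which mice shared a litter. Features with a mean of at least 0.5 FPKM were tested on log2(FPKM + 1) with limma 3.58.1 in R 4.3.3, two-sided, with Benjamini-Hochberg adjustment over all features; fold changes on this scale understate those of low genes. Transcript shares were log2 ratios to the other listed transcripts of the gene with 0.5 FPKM added to each part, for genes of at least 1 FPKM and shares of at least 5%. The unlisted part was tested likewise. Value columns left out numbered 0. Structures were taken from GENCODE M21, in which 62 members matched by gene and transcript version; sequences are those of its transcripts. Genome sequence and proteins were not used here. Named members were those with p under 0.05 for the gene, a transcript or a share, those without overlap and with a log2 fold change of at least 0.3, the 3 highest of the hnRNP, SR and RBM families, all members of small families and the 5 that varied most; others are named after their values were seen. A result that the rule names among the other splicing regulators is not reported here. Members and lists were chosen with earlier results of these data known. Deviations from group means correlated between same-numbered mice (r = 0.101, 0.175 and 0.220 over 12847 genes), each above 0.1, and the number was therefore used as a block in an alternative. Pairs of unlike number had r of -0.209 to 0.106, and the highest of them (control 1 with HuRAKO 2) was above the first same-numbered pair. What the number marks is not stated. Pseudocount, filter, scaling and variance model were also varied, and each mouse was left out in turn. Tests of the unlisted part and its alternatives were added after the tables were seen. The fits were tested on simulated data. Python 3.11.15 with numpy 2.4.6, pandas 2.3.3 and matplotlib 3.10.9 was used.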

Additional observations from a re-analysis of the deposited data

How the results depend on the processing

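The number of members with p under 0.05 was 5 for genes, 11 for transcripts and 2 for transcript shares, and 0 for unlisted parts. It moved by more than 1.5 times in few settings. For genes it was 3 with a mean-variance trend and robust moderation, and 1 to 5 when 1 mouse was left out. For transcripts it was 7 to 14 when 1 mouse was left out. For shares it was 5 with the replicate block, 0 when shares of at least 10% were required, which removed both transcripts, and 1 to 6 when 1 mouse was left out. For unlisted parts it was 0 to 2 when 1 mouse was left out. For the other splicing genes it was 7, and 2 to 8 when 1 mouse was left out. The replicate block, a pairing by mouse number, gave 6 member genes, 11 transcripts and 6 other splicing genes; for single features it took p over 0.05 for Qk, Rbm15-201 and Celf4-202. In all settings 0 members had an adjusted p under 0.05, and the members' median log2 fold change stayed between -0.07 and -0.00019. A filter of 1 FPKM could not be fitted for Celf4, Celf4-202 and Srsf10-202, which it removes. The genes, transcripts and shares with p under 0.05 kept their direction in every setting run; named members with a difference near 0 were not followed singly. With 3 mice a group and unknown depth, changes of the size seen in most members cannot be told from 0.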
